A study of Mus musculus with 12 samples.

Results

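The transcriptome of the mouse medial prefrontal cortex (PFC) was compared between mice colonized from postnatal day 21 (exGF) and mice that stayed germ-free (GF), which asks which gene programs differ when microbes arrive at weaning. The comparison uses 8 of the 12 RNA-sequencing samples of the series, 4 libraries per group, chosen by their column labels alone. GF mice were Swiss Webster males aged 10 weeks that had lived in isolators without microbes. exGF mice were of the same strain, sex and age, were born germ-free, and were taken out of the isolators at day 21 and kept in the standard animal unit beside the conventionally raised mice (CON). All groups ate the same autoclaved diet. Colonization therefore came together with the change of housing, and these cannot be told apart. RNA of 2 to 3 mice went into every library, so replicate error here means the variation among pools. The exGF columns of the deposited count table carry the names GFR1 to GFR4, which are used here because they were not matched to single animals or pools. The 4 CON libraries enter the text as values side by side only.

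Germ-free mice lack the microbial signals that normally shape the immune system, and colonization after weaning restores many peripheral immune functions. In the brain, microglia, oligodendrocytes and neurons have each been studied as targets of such signals. Oligodendrocytes wrap axons with myelin, a membrane rich in a small set of abundant proteins, and in the PFC this continues into adulthood. Interferons induce a shared set of antiviral genes in nearly every cell type through a short response element in their promoters. Neuronal activity induces immediate early transcription factors within minutes, and these in turn drive effector genes at synapses.

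Counts on genes ran from 13280926 (GF replicate 1) to 23465074 in GF and from 22702599 to 28615407 in exGF. Markers of the labelled tissue were present in every library. Slc17a7, the vesicular glutamate transporter of cortical excitatory neurons, had 1339 to 1631 CPM (counts scaled to a common normalized library size) across the 8 libraries, and Tbr1, a transcription factor of such neurons, had 113 to 162. Several libraries stood apart from their own group. The share of read pairs that aligned outside genes was 5.60%, 4.94%, 4.98% and 4.88% in GF replicates 1 to 4, but 5.26%, 7.31%, 6.45% and 5.56% in GFR1 to GFR4. Mitochondrial genes held 5.68% of the counts in GF replicate 1 and 8.33% to 9.80% in the other GF libraries, and 8.45% in GFR1 and 6.12% to 7.39% in the other exGF libraries. On the first principal component (25.7% of the variance) GF replicate 1 lay at -31.8 and the other GF libraries at 3.33 to 25.2, while GFR1 lay at 16.2 and the other exGF libraries at -15.8 to -10.0. The first component thus did not separate GF from exGF. On the second (20.3% of the variance) every exGF library (-0.70 to 27.2) lay above every GF library (-29.1 to -1.07), by a narrow margin between GFR1 and GF replicate 2.

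No single gene passed the test. Of 15569 genes with enough counts, 0 (0%) had an adjusted p under 0.1 in the edgeR quasi-likelihood test with adjustment over all genes (Benjamini-Hochberg), and the smallest adjusted p was 0.574. An unadjusted p under 0.05, called nominal below, was reached by 514 genes higher in exGF (3.3%) and 521 lower in exGF (3.35%). All exGF libraries lay above all GF libraries for 282 genes (1.81%) and below for 248 genes (1.59%). DESeq2 with a prior on fold changes, the kind of model the authors used, called 14 of 16359 genes (0.0856%), 7 in each direction. The nominal numbers depended on single libraries, with 267 higher and 262 lower without GFR2, 292 higher without GFR3, and 1006 higher and 1142 lower without GFR1. The edgeR call number was 7 without GFR1, 6 without GFR4 and 2 without GF replicate 4.

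Gene programs were followed through 44 lists holding 914 genes. The median log2 difference of a list, exGF minus GF, ran from -0.46 to 0.54, and over all tested genes it was -0.0047. In 17 lists no member reached a nominal p, though in several of these some did when 1 library was left out. The numbers over all genes also changed with the fit, so list counts from other fits have another background. Without GFR1, 1006 of 15726 genes were nominally higher and 1142 lower. Without GFR4 these numbers were 562 and 779 of 15728, and without GF replicate 1 707 and 740 of 15820. With the share of pairs outside genes as a covariate they were 185 and 190 of 15569, so 0 in a small list says little there. The highest median was that of nuclear long noncoding RNAs, and the lowest were those of hemoglobin and myelin genes. The share of members with a nominal difference was highest for nuclear RNAs (62.5% of 8, all higher), myelin (60% of 30, all lower) and hemoglobin genes (50% of 4, all lower). For hemoglobin this rested on few genes and single libraries, with 0 nominal members without GF replicate 4 or with the share of pairs outside genes as a covariate and 4 without GFR4. The share with a nominal difference was 26.0% of 77 oxidative phosphorylation genes and 22.8% of 79 ribosomal protein genes, all lower. Of 45 interferon-stimulated genes 20% were nominally higher and 2.22% nominally lower.

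**Figure D1:**
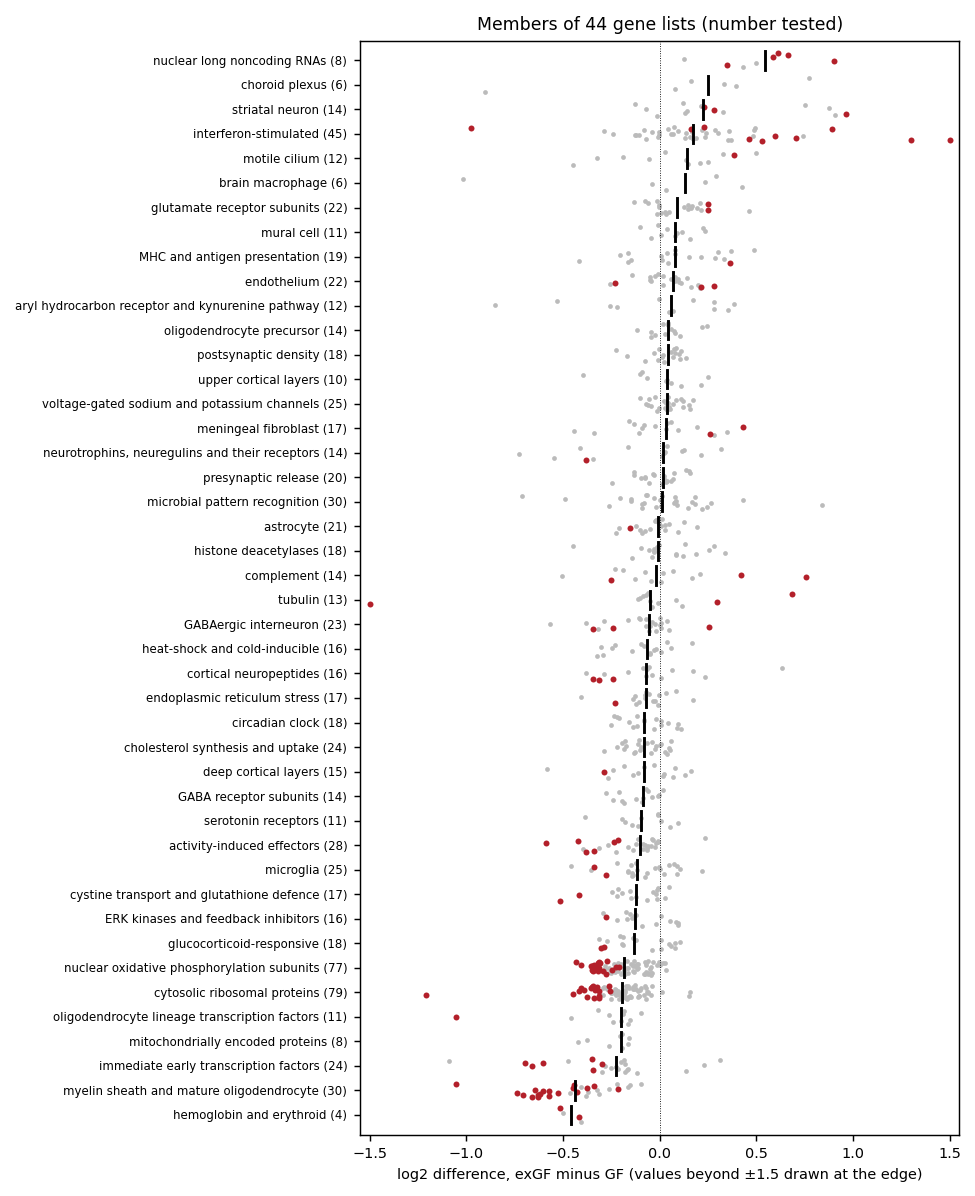
Log2 difference (exGF minus GF, horizontal axis) of each tested member of the 44 gene lists, sorted by list median (black bar). Red points have an unadjusted p under 0.05 in the edgeR quasi-likelihood test and grey points do not, and values beyond ±1.5 are drawn at the edge. All 30 myelin members lie left of zero, and 33 of 45 interferon-stimulated members lie right of zero.

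Interferon-stimulated genes were higher in exGF. Of 51 genes listed 45 were tested, with a median log2 difference of 0.17, and 33 were higher and 12 lower in exGF. Nominal differences were found for 9 members on the higher side, Ifit3, Ifit3b, Ifit1, Irf7, Oasl2, Mx2, Ifi35, Adar and Lgals3bp, against 3.3% of all genes, and for 1 on the lower side. In 6 members all exGF libraries lay above all GF libraries, against 1.81% of all genes. Without GF replicate 4, or without GFR3, the higher side held 5 nominal members.

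Ifit3 codes for an antiviral protein with tetratricopeptide repeats (ENSMUSG00000074896, GRCm38 chromosome 19 from 34583531 to 34588731). It had 0.447, 0.180, 0.214 and 0.440 CPM in GF replicates 1 to 4 and 0.497, 2.32, 3.82 and 4.40 CPM in GFR1 to GFR4. GFR1 stood just above the highest GF library and the other exGF libraries stood well above it, where the CON libraries also lay (1.70 to 6.10 CPM). The mean was 0.32 ± 0.143 CPM in GF and 2.76 ± 1.75 in exGF (SD, n = 4). The log2 difference was 3.16 (SE 0.60, adjusted p = 0.574, edgeR). Between 4 and 8 pairs were counted per GF library and 12 to 130 per exGF library. Of the words of 31 bases in Ifit3, 61.8% also occur in other genes, and for its neighbour copy Ifit3b this is 55.2%, so pairs of these genes may be assigned to one another or dropped. Ifit3b had 0.330 to 2.25 CPM in GF and 1.70 to 3.54 in exGF.

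The sequences before the transcript starts of Ifit3, Ifit3b and Ifit1 show the letters through which interferon acts. In the RefSeq promoter windows (GRCm38.p6, 250 bases before to 50 after each start) the letters GAAANNGAAA, the core of the interferon-stimulated response element, were searched on both strands. They were in 3.44% of all 32851 windows, in 3.56% of 11711 tested genes with a window and in 19 of the 34 tested list members with a window (55.9%). The stretches of the 3 Ifit genes that were nominally higher are given because they hold a pair of such matches each, in capitals, read on the plus strand as the reverse complement.
Ifit3, chr19:34583353-34583436: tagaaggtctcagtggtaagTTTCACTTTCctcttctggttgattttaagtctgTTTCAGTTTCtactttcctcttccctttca
Ifit3b, chr19:34607749-34607832: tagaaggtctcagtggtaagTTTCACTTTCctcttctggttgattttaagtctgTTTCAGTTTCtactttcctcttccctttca
Ifit1, chr19:34640765-34640833: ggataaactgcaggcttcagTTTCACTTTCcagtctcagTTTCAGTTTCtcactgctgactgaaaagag
The stretches of Ifit3 and Ifit3b are identical over 84 bases, and that of Ifit1 holds the same pair of capital runs closer together. A match is a description of letters and not of a bound factor. Matches before the start also lay in members without a nominal difference, such as Rsad2 (log2 difference 0.48), Isg15 (0.17), Stat2 (-0.01), Bst2 (-0.12) and Trim30d (-0.24). None was found before the start of Ifit2 or of the other nominally higher members, some of which may have no window. A match was thus not particular to the members that differed. Ifit2, a tested member of the same cluster on chromosome 19, is not shown, and its levels overlapped between the groups, with 5.39 to 21.4 CPM in GF and 11.6 to 23.3 in exGF (log2 difference 0.37, SE 0.30).

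Ifit1, of the same antiviral family, had 1.12, 1.98, 2.09 and 1.59 CPM in GF and 2.69, 2.37, 2.55 and 2.34 in exGF. The lowest exGF library was above the highest GF library, with a log2 difference of 0.53 (SE 0.23). Irf7, the transcription factor that amplifies the interferon response, had 1.27, 1.66, 1.18 and 1.48 CPM in GF and 1.99, 2.67, 2.65 and 1.90 in exGF, a log2 difference of 0.70 (SE 0.23). Oasl2, of the oligoadenylate synthetase family that senses double-stranded RNA, had 2.83, 2.11, 2.68 and 2.86 CPM in GF and 4.01, 3.55, 4.85 and 3.35 in exGF, a log2 difference of 0.60 (SE 0.19). Again every exGF library was above every GF library. The adjusted p was 0.739 for Ifit1 and 0.736 for both Irf7 and Oasl2 (edgeR).

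Adar, an RNA-editing enzyme with an interferon-induced form, was the most abundant member. It had 160 to 175 CPM in GF and 178 to 198 in exGF, a log2 difference of 0.16 (SE 0.07). Lgals3bp, a secreted glycoprotein, had 10.6 to 11.6 CPM in GF and 12.4 to 13.6 in exGF. Neither range overlapped with its counterpart. Mx2, an antiviral GTPase, had 0.642 to 1.15 CPM in GF and 1.06 to 1.86 in exGF and Ifi35 had 1.79 to 2.74 and 2.59 to 3.54, so these overlapped. Stat2 and Irf9, which relay the interferon signal and are themselves induced by it, showed small differences of -0.01 and 0.19.

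Averaged over the list, the level of interferon-stimulated genes relative to the GF mean was 0.05, 0.02, -0.04 and -0.03 in GF replicates 1 to 4 and 0.30, 0.28, 0.33 and 0.18 in GFR1 to GFR4 (log2). The exGF libraries lay in a narrow band above the GF libraries, and the CON libraries lay at 0.35, 0.33, 0.26 and 0.18. The list median for GF minus CON was -0.24, and both comparisons share the GF libraries. These genes were listed with earlier results of these data known, so their direction here is not independent evidence. The list median was 0.17 with the share of pairs outside genes as a covariate as well, though 5 members were then nominal, and 0.30 without GF replicate 1. With the DESeq2 prior the list median was smaller, as given below where the dependence on the processing is described. The medians of other immune lists lay nearer to that of all genes. Among 19 genes of antigen presentation the median was 0.08 with 1 nominal member (5.26%, against 3.3% of all genes higher), H2-D1, a class I heavy chain at 51.4 to 58.1 CPM in GF and 61.8 to 82.9 in exGF that shares 25.6% of its words with other genes. In the fit of all 12 libraries 0 genes of this list were nominally higher. Without GFR1 2 were nominally higher, and without GF replicate 2 1 was nominally lower. Among 25 microglia genes the median was -0.12 with 2 nominally lower members (8%, against 3.35% of all genes), Ctss, a lysosomal protease (-0.34), and P2ry13, a purine receptor (-0.28). Among 30 receptors and adaptors of microbial pattern recognition the median was 0.01 with none (2 nominally higher without GFR1 and 2 nominally lower without GF replicate 2). Over all genes 1006 of 15726 were nominally higher without GFR1 and 368 of 15766 nominally lower without GF replicate 2. Of 14 complement genes, with a median of -0.02, C4b (0.42) and C2 (0.76) were nominally higher (14.3%) and C1qc (-0.25) nominally lower (7.14%). C4b shares 48.3% of its words with other genes. No complement gene was nominally higher without GF replicate 2 and none nominally lower without GF replicate 1, and no microglia gene was nominally lower with the share outside genes as a covariate.

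Transcripts of immunoglobulin A marked the exGF libraries. Igha, the heavy chain constant region of the antibody class made at mucosal surfaces, where it depends on microbes (ENSMUSG00000095079, chromosome 12 from 113254830 to 113260236), had 0 counts in each of the 4 GF libraries. It had 10, 10, 4 and 10 counts in GFR1 to GFR4 and 6, 7, 14 and 13 in the CON libraries. Over the whole group this is 34 counts in exGF against 0 in GF, where 0 counts allow up to 0.0403 CPM (3 counts over the group). The observed exGF level was 8.11-fold above that limit. Igha was too low for the main test. It was singled out after its values had been seen. The limit covers counting error in GF only, and the fold leaves out the counting error in exGF and the spread among pools. Igkc, the light chain constant region, had 1, 3, 0 and 2 counts in GF and 5, 5, 8 and 11 in exGF, and Jchain, which joins IgA units, had 4, 6, 3 and 2 counts in GF and 8, 9, 4 and 8 in exGF. Jchain overlapped between the groups, relative to depth, and Igkc did not. Other heavy chain constant regions varied among pools, with 215, 387, 226 and 158 counts of Ighm in GF and 263, 535, 890 and 1192 in exGF, and with 2, 39, 0 and 0 counts of Ighg2c in GF and 5, 57, 152 and 139 in exGF.

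Myelin genes were lower in exGF. All 30 genes of the myelin sheath and mature oligodendrocyte list were tested and all 30 were lower in exGF, with a median log2 difference of -0.44 and a range from -1.05 to -0.10. A nominal p was reached by 18 of them, against 3.35% of all genes lower, and 4 did not overlap between the groups, against 1.59%. These genes were listed with the difference between GF and CON in the same GF libraries known, so their direction here is not independent evidence. In bulk tissue, fewer oligodendrocytes and less myelin RNA per cell cannot be told apart.

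Ermn, a cytoskeletal protein of mature oligodendrocytes (ENSMUSG00000026830, chromosome 2 from 58045113 to 58052864), had 34.6, 36.7, 52.0 and 40.8 CPM in GF and 30.9, 20.3, 16.5 and 30.9 in exGF (log2 difference -0.74, SE 0.19). GFR1 and GFR4 stood near the lowest GF libraries, and GFR2 and GFR3 stood below the CON libraries (21.2 to 24.2 CPM). Bcas1, found in oligodendrocytes that are forming myelin, had 139, 125, 207 and 155 CPM in GF and 123, 80.9, 79.9 and 117 in exGF (log2 difference -0.65, SE 0.17). In both genes every exGF library was below every GF library, with GF replicate 3 the highest of all.

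Other structural components overlapped between the groups in 1 or more libraries. Mobp, a basic protein of compact myelin, had 636 ± 157 CPM in GF and 390 ± 110 in exGF (SD, n = 4). Mal, a proteolipid of membrane sorting, had 219 ± 49.9 and 142 ± 38.9, Cldn11, the tight junction protein of the sheath, 69.0 ± 11.3 and 45.0 ± 11.5, and Tspan2, a tetraspanin of early myelin, 83.3 ± 12.2 and 56.2 ± 11.5. Mog, on the outer surface of the sheath, had 44.9 ± 9.67 and 30.2 ± 10.2. Their log2 differences ran from -0.71 (Mobp) to -0.57 (Tspan2 and Mog).

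The list of lineage transcription factors had a smaller median difference than the sheath genes, though it also holds the member with the largest difference of both lists, Nkx6-2. Nkx6-2, a homeodomain factor of maturing oligodendrocytes, had 4.32, 3.46, 8.14 and 4.23 CPM in GF and 2.28, 1.71, 2.90 and 2.78 in exGF, with no overlap (log2 difference -1.05, SE 0.27, adjusted p = 0.736, edgeR). It was the only nominal member among 11 lineage transcription factors, whose median was -0.20 with all 11 lower (9.09% nominal, against 3.35% of all genes), but 5 were nominal without GFR4 and 4 with the mitochondrial share as a covariate. Myrf, the factor that drives myelin gene transcription, differed by -0.26, Sox10 by -0.20 and Olig1 by -0.17. The 14 genes of oligodendrocyte precursors had a median of 0.04, with 10 higher and none nominal.

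The level of the myelin list was -0.04, -0.26, 0.37 and -0.08 in GF replicates 1 to 4, -0.35, -0.65, -0.67 and -0.15 in GFR1 to GFR4 and -0.52, -0.36, -0.73 and -0.66 in CON. GFR4 lay inside the GF range and the other exGF libraries below it. The list median for GF minus CON was 0.56 and for exGF minus CON 0.14, where all comparisons share libraries. GFR2 and GFR3, the exGF libraries with the lowest myelin level, also had the most pairs outside genes. With that share as a covariate the list median was -0.26 and 1 member was nominal, whereas with the mitochondrial share as a covariate the median was -0.48 and 24 were nominal. Without GF replicate 3, 12 members were nominal. The part of the share outside genes in the myelin difference was not tested beyond these fits.

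**Figure D2:**
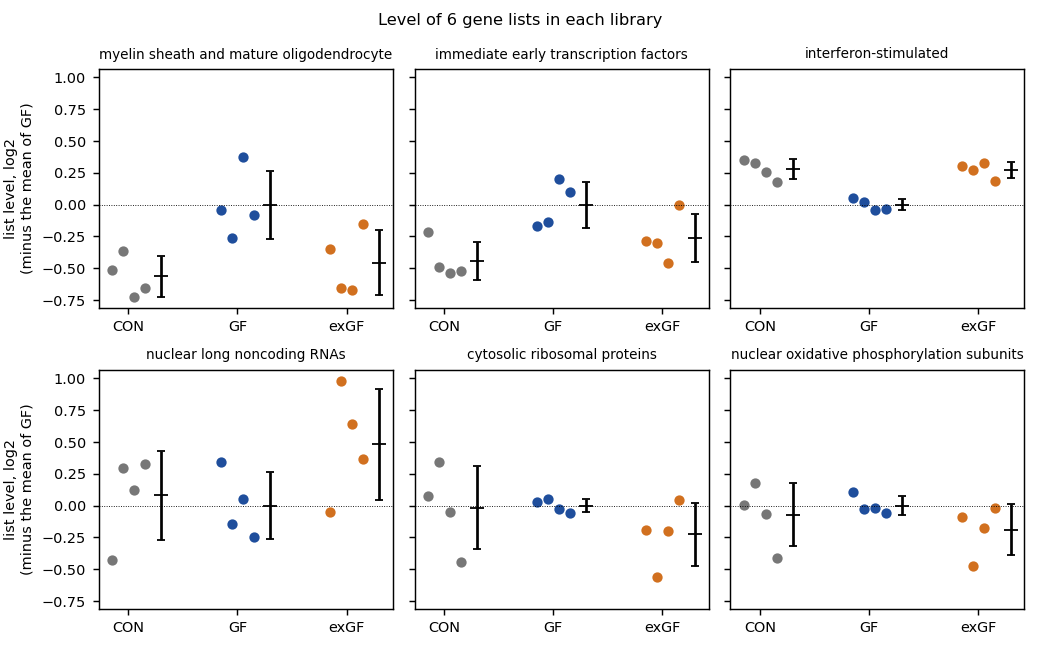
Mean log2 CPM of each of 6 gene lists per library, minus the mean of the GF libraries (vertical axis), for CON, GF and exGF. Points are libraries and bars are the mean ± SD of 4. The exGF libraries lie above all GF libraries for interferon-stimulated genes, while for the other lists the groups overlap.

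Activity-regulated genes were mostly lower by small amounts, but this depended on how the list was summarized. The list of 24 immediate early transcription factors had a median log2 difference of -0.23, with 21 members lower and 6 nominal, all lower, against 3.35% of all genes. None separated the groups. Nr4a2, an orphan nuclear receptor, had 30.6, 14.1, 22.5 and 21.3 CPM in GF and 20.2, 9.03, 8.21 and 18.1 in exGF (log2 difference -0.66, SE 0.29). Junb, a component of the AP-1 complex, had 45.0, 51.3, 66.7 and 53.3 CPM in GF and 35.5, 48.4, 37.3 and 49.4 in exGF (-0.35, SE 0.14). Klf4, a zinc finger factor, had 7.67, 6.83, 14.9 and 9.40 CPM in GF and 4.14, 7.15, 5.34 and 7.42 in exGF (-0.70, SE 0.25). GF replicate 3 was highest in the last 2 genes. Fos, the most used marker of recent firing, had 36.2 to 48.5 CPM in GF and 26.2 to 51.2 in exGF, a log2 difference of -0.12, and Npas4, which responds to calcium alone, was higher in exGF by 0.23 with an unadjusted p of 0.112 (edgeR).

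The number of nominal members of this list was 2 without GF replicate 3, 2 without GFR2, 3 without GFR3 and 11 without GFR4. The level of the list was -0.17, -0.14, 0.21 and 0.10 in GF and -0.28, -0.30, -0.46 and -0.0037 in exGF, so GFR4 lay among the GF libraries. These levels are means over members, and with the median over members the exGF mean was 0.018 above that of GF. With the share of pairs outside genes as a covariate 2 members were nominally lower. The direction of activity genes is not independent evidence either, since they too were listed with the difference between GF and CON known. The medians of GF minus CON and exGF minus CON were 0.42 and 0.18.

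Among 28 effector genes of activity the median was -0.10, with 27 lower and 6 nominally lower, against 3.35% of all genes. Bdnf, the neurotrophin that activity induces, had 42.2, 54.5, 40.2 and 57.6 CPM in GF and 42.8, 36.5, 35.9 and 34.8 in exGF, a log2 difference of -0.38 (SE 0.12, adjusted p = 0.736, edgeR). GF replicates 2 and 4 were the highest and GFR1 lay inside the GF range. Homer1, a postsynaptic scaffold protein, differed by -0.34, Nrn1, a small protein of neurite growth, by -0.24, and Tnfaip6, a matrix-binding protein, by -0.59. The nominal number was 2 with the share outside genes as a covariate, 2 without GF replicate 2, 2 without GF replicate 4 and 2 without GFR2. Of 16 kinases and inhibitors of the ERK pathway, which relays activity to the nucleus, 1 was nominally lower (6.25%, against 3.35% of all genes). This was the phosphatase Dusp6, with 101, 110, 103 and 115 CPM in GF and 101, 84.7, 77.9 and 91.9 in exGF (-0.28, SE 0.09), where GFR1 lay just below the lowest GF library. In this list 3 were nominally lower without GF replicate 1 and 0 with the share outside genes as a covariate.

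The letters TGACGTCA, the cyclic AMP response element through which activity reaches many such promoters, were in 1.79% of all promoter windows and in 3.48% of tested genes, on both strands. They were in 2 of 19 immediate early genes with a window and 3 of 19 effectors.

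The strongest single-gene differences were of several kinds. Tuba1c, an alpha-tubulin (ENSMUSG00000043091, chromosome 15 from 99029891 to 99038110), had the smallest p. It had 28.9, 12.5, 16.6 and 0.660 CPM in GF and 1.20, 0.307, 0.283 and 0.779 in exGF, while the CON libraries had 27.7 to 51.6. GF replicate 4 stood with the exGF libraries, and the others stood apart. The log2 difference was -4.49 (SE 0.77, adjusted p = 0.574, edgeR), and without GF replicate 4 the adjusted p was 0.000278, within a range from 0.000278 to 0.999 over the libraries left out. Tuba1c shares 53.8% of its words with other genes. The tubulin pseudogene Gm14150, which was below the count filter and was singled out after its values had been seen, had 73, 61, 53 and 5 counts in GF and 3, 2, 3 and 1 in exGF, with GF replicate 4 again near the exGF libraries. Tuba8, another alpha-tubulin, was higher by 0.30 with all exGF libraries above all GF libraries.

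Among genes lower in exGF, Zfp605, a zinc finger protein (ENSMUSG00000023284, chromosome 5 from 110110092 to 110129794), had 49.3, 42.5, 47.9 and 49.5 CPM in GF and 35.0, 25.3, 27.7 and 34.6 in exGF, a log2 difference of -0.63 (SE 0.12, adjusted p = 0.574, edgeR). Irak1bp1, which binds a kinase of Toll-like receptor signalling (ENSMUSG00000032251, chromosome 9 from 82829540 to 82847687), had 12.6, 17.5, 14.8 and 15.6 CPM in GF and 6.58, 7.36, 8.88 and 10.9 in exGF, a log2 difference of -0.84 (SE 0.16, adjusted p = 0.574, edgeR). Ptma, prothymosin alpha, a chromatin protein, had 131, 172, 144 and 151 CPM in GF and 123, 103, 105 and 111 in exGF. The groups did not overlap in any of these. Parvg, a parvin of blood cells, had 12.7 ± 3.15 CPM in GF and 7.37 ± 0.389 in exGF (SD, n = 4). Mthfd2, a mitochondrial enzyme of folate metabolism, had 5.68 ± 0.840 and 3.48 ± 0.405, and Prrg1, a membrane protein with a Gla domain, 3.95 ± 0.874 and 2.10 ± 0.448. Bfsp2, a lens filament protein, and Tgm4, a transglutaminase, were lower at levels under 4 CPM. The processed pseudogene Gm15772 had 68.4 to 132 CPM in GF and 30.6 to 59.0 in exGF, but 84.8% of its words are in other genes.

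Among genes higher in exGF, AA465934, a noncoding transcript that holds Snord7 on chromosome 11 (ENSMUSG00000093483, from 83291699 to 83294632), had 5.88, 5.39, 5.67 and 6.60 CPM in GF and 13.2, 14.2, 14.3 and 6.88 in exGF (log2 difference 1.04, SE 0.21, adjusted p = 0.574, edgeR). GFR4 was just above the GF libraries. Trank1, a large protein with tetratricopeptide and ankyrin repeats, had 226, 173, 209 and 190 CPM in GF and 217, 418, 318 and 301 in exGF (0.65, SE 0.15), with GFR1 inside the GF range. Thbs3, a thrombospondin, had 8.48, 6.69, 7.5 and 7.75 CPM in GF and 8.86, 14.3, 13.3 and 11.7 in exGF (0.66, SE 0.15). Tbce, a tubulin folding cofactor, had 31.5 ± 1.53 CPM in GF and 40.0 ± 1.67 in exGF (SD, n = 4), a log2 difference of 0.34 (SE 0.09).

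The remaining genes with the smallest p on this side were mainly noncoding or pseudogene transcripts, Gm27000 (96.2% of words shared), 5830417I10Rik (76.9%), A830036E02Rik, Gm12940 and Gm11613. Gm5134 had 0.521, 0, 0 and 0 CPM in GF, 0, 5.17, 6.83 and 5.15 in exGF and at most 0.0382 in CON, so only GFR2, GFR3 and GFR4 had more than 1 CPM of it. The genes called by DESeq2 with a prior were led by AA465934, Ifit3, Irak1bp1, Zfp605, Parvg and 5830417I10Rik.

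**Figure D3:**
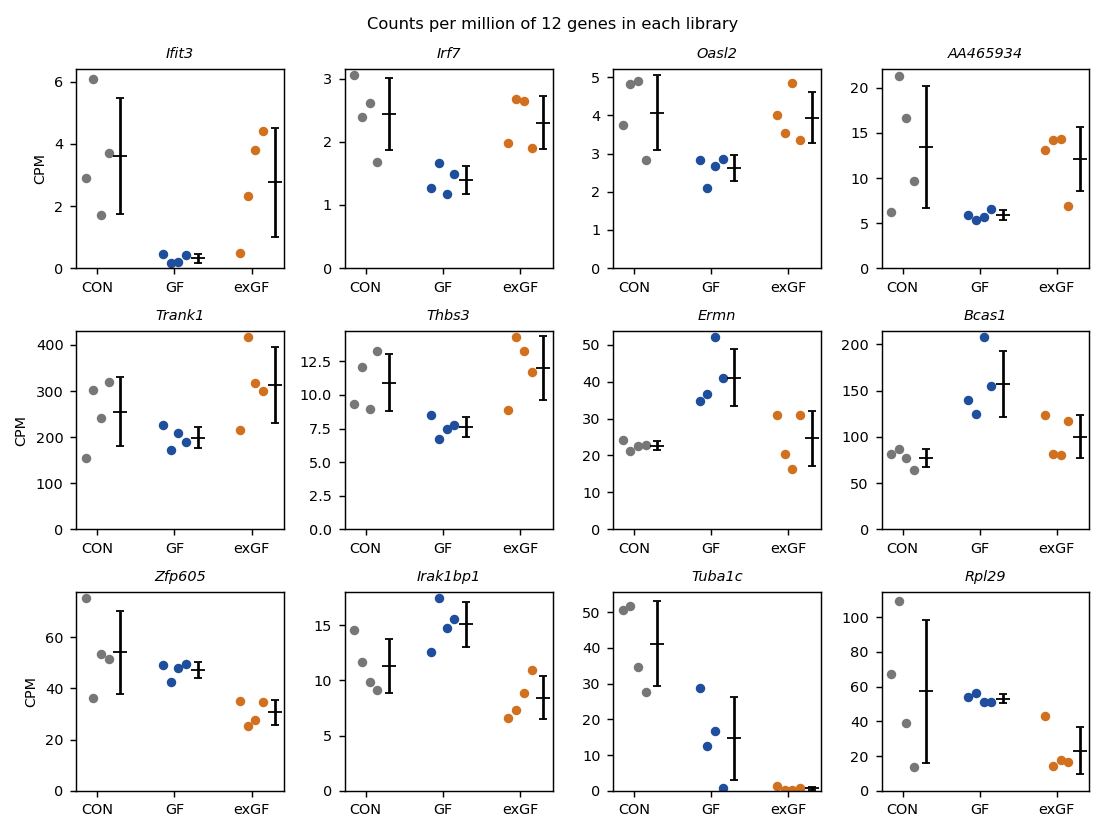
CPM (vertical axes from 0) of 12 genes in each CON, GF and exGF library. Points are libraries and bars are the mean ± SD of 4. Ifit3, Irf7 and Oasl2 are higher in every exGF library than in every GF library, and Tuba1c in GF replicate 4 (0.660 CPM) lies with the exGF libraries.

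Nuclear long noncoding RNAs were higher in exGF, and genes of the ribosome and of oxidative phosphorylation were lower. GFR2 and GFR3, with the most pairs outside genes, had the highest level of nuclear RNAs and the lowest of the other 2 lists. All 8 nuclear RNAs were higher, with a median log2 difference of 0.54 and 5 nominal members, against 3.3% of all genes. Miat, a spliced RNA that stays in neuronal nuclei, had 229, 127, 156 and 94.8 CPM in GF and 131, 452, 329 and 225 in exGF (log2 difference 0.90, SE 0.31). Snhg11, a host transcript of small nucleolar RNAs, had 745, 558, 620 and 407 CPM in GF and 567, 1419, 952 and 773 in exGF (0.67, SE 0.23). Kcnq1ot1, an imprinted antisense RNA, had 3.94, 3.41, 3.53 and 3.63 CPM in GF and 4.18, 6.97, 6.47 and 4.61 in exGF (0.61, SE 0.19), the only one of the 8 with no overlap, though pairs of its sense partner Kcnq1 cannot be told apart without strand. Neat1, the scaffold of paraspeckles, differed by 0.35 and Mirg, an imprinted RNA that holds many miRNAs, by 0.58.

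The level of these RNAs was 0.35, -0.15, 0.05 and -0.25 in GF and -0.05, 0.98, 0.64 and 0.37 in exGF, and it followed the order of the share of pairs outside genes closely, with GFR2 highest on both. With that share as a covariate the median was 0.021 and no member was nominal. Without GFR2, 3 members were nominal.

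Of 79 cytosolic ribosomal protein genes tested (82 listed) 76 were lower in exGF, with a median of -0.19. Nominal differences were found for 18, all lower, against 3.35% of all genes, and 4 had no overlap, against 1.59%. Rpl29 differed most, with 53.8, 56.2, 51.1 and 51.2 CPM in GF and 43.0, 14.4, 17.8 and 16.7 in exGF, but the CON libraries ran from 13.6 to 109 CPM and 35.4% of its words are in other genes. Its log2 difference was -1.21 (SE 0.27, adjusted p = 0.709, edgeR), and without GFR1 the adjusted p was 1.84e-05, within a range from 1.84e-05 to 0.999 over the libraries left out. Rpl21 (-0.37) and Rpl27a (-0.31) had the next smallest p. Of 77 nuclear genes of oxidative phosphorylation 73 were lower, with a median of -0.18, 20 nominal members against 3.35% of all genes lower, and 7 with no overlap against 1.59%. The nominal members with the smallest p were Ndufc2 of complex I (-0.41) and Cox7c and Cox5b of complex IV (-0.35 each), all of which overlapped between the groups. The 8 tested genes that mitochondria encode themselves were also lower, by a median of -0.20, with none nominal, but 7 of them were nominally lower without GF replicate 1, the library with the lowest mitochondrial share.

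The library furthest from GF was GFR2 for both lists. The ribosomal level was 0.03, 0.05, -0.03 and -0.06 in GF and -0.19, -0.56, -0.20 and 0.05 in exGF, and the oxidative phosphorylation level was 0.11, -0.03, -0.02 and -0.06 in GF and -0.09, -0.47, -0.18 and -0.02 in exGF. GFR4 lay inside the GF range on both. With the share outside genes as a covariate the medians were -0.011 and -0.0047, with 1 and 0 nominal members. The nominal numbers were 7 and 11 without GFR2, 7 and 13 without GF replicate 2, and 56 and 33 without GFR4, and for oxidative phosphorylation also 13 without GF replicate 1.

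**Figure D4:**
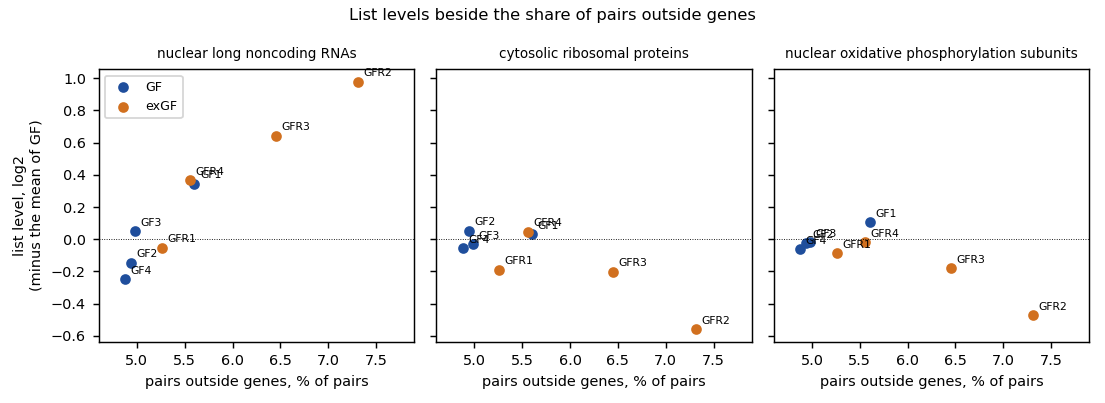
Level of 3 gene lists (log2, minus the GF mean, vertical axis) against the share of read pairs outside genes (percent, horizontal axis) in the 8 libraries, labelled by name. GFR2 (7.31% outside genes) is highest for nuclear RNAs and lowest for both other lists.

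Transcript length went with the direction of the differences. When the tested genes were divided into 5 groups by their longest transcript, the shortest group (57 to 1891 bases) had a median log2 difference of -0.07 and 7.46% of its genes were nominally lower, against 2.94% nominally higher. The longest group (from 5224 bases) had a median of 0.04, with 0.679% nominally lower and 4.49% nominally higher. Ribosomal and oxidative phosphorylation genes are short. The part of length in their difference was not tested.

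**Figure D5:**
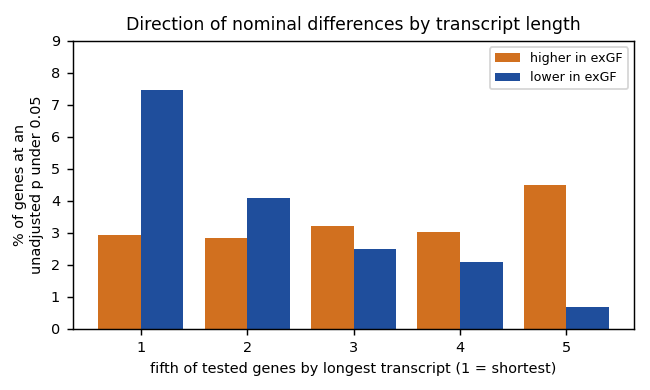
Percent of tested genes with an unadjusted p under 0.05 (edgeR), by transcript length in 5 groups, for genes higher (orange) and lower (blue) in exGF. The lower share goes from 7.46% in the shortest to 0.679% in the longest group.

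Markers of other cell types and of neighbouring tissue bear on what each pool held. The 21 astrocyte genes had a median of -0.01 and levels within 0.06 of the GF mean in every library. Their 1 nominal member was Glul, which was lower (4.76%, against 3.35% of all genes). The number was 0 without GF replicate 4 and 2 without GF replicate 2. Of 14 striatal neuron genes, with a median of 0.22, Adora2a, Pde10a and Adcy5 were nominally higher (21.4%, against 3.3% of all genes), but none was without GF replicate 3 or in the fit of all 12 libraries, 5 were without GFR1, and 7 were with the share outside genes as a covariate. The level of the list was 0.98 in GFR4 against -0.08 to 0.17 in the other exGF libraries. Adora2a, the adenosine receptor of striatal projection neurons, had 9.11 CPM in GFR4 and 1.64 to 3.93 CPM in the other 7 libraries, and 9.73 CPM in CON replicate 2. In 4 tested genes of red blood cells the median was -0.46, with Hbb-bs, the adult beta globin, at 49.5, 37.4, 69.9 and 79.2 CPM in exGF and 71.5 to 83.8 in GF (54.4% of its words shared), and the level of the list was -0.91 in GFR1 and -0.90 in GFR2. The 22 endothelial genes had a median of 0.07, with 9.09% nominally higher and 4.55% nominally lower, against 3.3% and 3.35% of all genes. Kdr and Flt1, receptors for vascular endothelial growth factor, were higher by 0.28 and 0.22, and Slc2a1, the glucose transporter of the blood-brain barrier, was lower by 0.23 on the log2 scale, each nominally. Kdr and Slc2a1 did not overlap between the groups, but no endothelial gene was nominal in either direction without GF replicate 4 or with the share outside genes as a covariate. Of 17 meningeal fibroblast genes, with a median of 0.04 and 9 higher against 8 lower, Slc6a13 (0.43) and Col1a2 (0.26) were nominally higher (11.8%, against 3.3% of all genes). None was nominally higher without GFR3, and 3 were nominally lower without GF replicate 1. The level of the choroid plexus list was 1.16 in GF replicate 1, -0.72 to -0.02 in the other GF libraries and -0.36 to 0.81 in exGF. Ttr of this list had 9.30 CPM in GF replicate 1, 0.375 to 0.674 in the other GF libraries and 0.124 to 2.58 in exGF. The part of these cell types in the other differences was not tested.

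Lists of neuronal identity and synapse genes had medians between -0.10 and 0.09. Upper layer genes had a median of 0.04 and deep layer genes -0.08, with Pcp4 nominally lower (-0.29), and deep layers held 0 nominally lower genes without GF replicate 3 and 3 without GFR4. Presynaptic release genes (0.02), the postsynaptic density (0.04), sodium and potassium channels (0.04), GABA receptors (-0.09) and serotonin receptors (-0.10) held no nominal member, but 4 GABA receptor genes were nominally lower without GFR1, and 2 channel and 2 presynaptic genes nominally higher without GFR4. Of 22 glutamate receptor genes 2 were nominally higher by 0.25 each (9.09%, against 3.3% of all genes), Grin2c, an NMDA receptor subunit, and Grm2, an inhibitory metabotropic receptor. None was without GF replicate 2, and 5 were without GFR1. Of 16 cortical neuropeptides 3 were nominally lower (18.8%, against 3.35% of all genes). With a library left out 2 to 4 were nominally lower. With the share outside genes as a covariate 3 were nominally higher, against 0 in the reported fit. Cck, cholecystokinin, had 449, 440, 417 and 367 CPM in GF and 312, 315, 366 and 354 in exGF, with no overlap (-0.31, SE 0.09), Sst, somatostatin, had 287 ± 19.6 and 226 ± 42.3 (SD, n = 4), and Npy, neuropeptide Y, 135 ± 9.46 and 114 ± 17.0. Of 23 interneuron genes, with a median of -0.06 and 16 lower, 2 were nominally lower (Sst and Npy, 8.70%) and 1 nominally higher (4.35%), Reln, a matrix protein (0.25), and none was nominally lower with the share outside genes as a covariate.

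Among stress and metabolic programs, 2 lists held a pair of nominally lower members each. Of 18 glucocorticoid-responsive genes, with a median of -0.13, these were Tsc22d3 (-0.29) and Sgk1 (-0.31), 11.1% against 3.35% of all genes, and Sgk1 is also expressed by oligodendrocytes. Of 17 cystine and glutathione genes, with a median of -0.12, 2 (11.8%) were nominally lower and the same 2 lay below all GF libraries, against 1.59% of all genes. Slc7a11, the cystine transporter, was at 38.6, 64.8, 39.5 and 38.3 CPM in GF and 34.4, 33.6, 30.2 and 28.9 in exGF (-0.52, SE 0.16), and Gpx4, which repairs lipid peroxides, differed by -0.42. CON libraries had 57.7 to 77.7 CPM of Slc7a11, further from exGF than GF was. With the share outside genes as a covariate 0 glucocorticoid-responsive and 1 cystine or glutathione gene were nominally lower. Without GF replicate 1 these numbers were 3 and 4, and without GF replicate 3 the glucocorticoid-responsive number was 1. Calr (-0.23) was the only nominal gene among 17 of endoplasmic reticulum stress (5.88%, against 3.35% of all genes lower). In this list 0 were nominal without GF replicate 3 and 4 without GFR1. Circadian (-0.08), heat-shock (-0.06), cholesterol (-0.08), histone deacetylase (-0.01) and aryl hydrocarbon receptor genes (0.06) held none, but without GFR1 5 cholesterol and 3 heat-shock genes were nominally lower and 5 histone deacetylases nominally higher, and without GFR4 3 circadian genes were nominally lower. Over all genes 1142 of 15726 were nominally lower and 1006 higher without GFR1, and 779 of 15728 were lower without GFR4. In the 17 lists without a nominal member the medians ran from -0.20 to 0.25, and their most abundant members differed by -0.25 to 0.29.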

How the data were processed

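The authors trimmed the paired reads of 12 polyA libraries with Trimmomatic (0.32), aligned them to GRCm38.p3 with STAR and counted uniquely aligned pairs on Ensembl genes with HTSeq-count (0.6.0), without strand, so overlapping and antisense genes share pairs. The deposited values are raw counts for 41388 genes. The authors tested with DESeq2 (1.6.2). Here the 4 GF and 4 exGF libraries were filtered (filterByExpr), TMM-normalized and tested with edgeR 4.0.16 (glmQLFit and glmQLFTest, R 4.3.3), Benjamini-Hochberg adjusted and called under 0.1. p-values measure the spread between pools, with a biological coefficient of variation of 13.3%. Pools of 1 group differed beyond counting error (mean chi-square per gene 9.26 or more, where sampling gives 1). DESeq2 1.42.0, limma-voom 3.58.1, other normalizations and filters, a fit of all 12 libraries, a block, covariates and leaving out each library were alternatives. List levels are mean log2 CPM with a prior count of 1. Of each list, up to 3 members with the smallest nominal p, the 12 smallest p in each direction and the DESeq2 calls were named, and further members are given as values. The genes and lists were chosen with earlier results of these data known. Gene names and coordinates came from a GRCm38 annotation (40254 matched). Results of some single genes are not reported here.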

Additional observations from a re-analysis of the deposited data

Results flagged for a closer look

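A library far from the other 3 of its group was looked for in 232 groups of list levels and named genes, and 12 were found (5.17%, where chance alone gives about 1 in 20). Among list levels (log2, minus the GF mean), microbial pattern recognition was 0.105 in GFR3 against 0.0440 to 0.0483 in the other exGF libraries, and histone deacetylases were -0.103 and neurotrophins -0.23 in GFR1 against at least 0.0722 and -0.101. GF replicate 1 was at -0.296 for cortical neuropeptides and -0.207 for serotonin receptors, where the other GF libraries were above zero, and it was the shallowest library. Among genes in CPM, AA465934 was 6.88 in GFR4 against 13.2 to 14.3, Rpl29 was 43 in GFR1 against 14.4 to 17.8, and Kdr was 32.5 in GFR3 against 28.4 to 28.9. In GF, Gm5134 was 0.521 in replicate 1 against 0, A830036E02Rik was 18 and Slc7a11 was 64.8 in replicate 2 against at most 11.6 and 39.5, and Cox5b was 142 in replicate 4 against at least 167.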

How the results depend on the processing

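The number of genes called, 0 in the reported fit, was 14 and 21 with DESeq2 with and without a prior, 32 with no filter on low counts, 2 in a fit of all 12 libraries, 3 with the mitochondrial share as a covariate (a setting chosen after seeing the data, like the share outside genes) and 0 to 7 with each library left out, and 0 with RLE or upper-quartile factors, a robust fit, limma-voom or at least 10 counts everywhere. Nominal genes numbered 815 higher and 813 lower with no filter, 185 and 190 with the share outside genes as a covariate, and 267 to 1006 and 262 to 1142 with a library left out, and with a library left out genes with all exGF above all GF numbered 381 to 1052 and genes with all exGF below all GF 304 to 839. With the share outside genes as a covariate the nominal members numbered 1 for myelin, 5 for interferon, 2 for immediate early genes, 2 for effectors, 1 for ribosomal proteins, 0 for oxidative phosphorylation and 0 for nuclear RNAs, the list medians were -0.011 (ribosomal), -0.0047 (oxidative phosphorylation) and 0.021 (nuclear RNAs), and Snhg11 changed sign (-0.014). The cause was not tested. Ribosomal proteins had 8 nominal members in the fit of all libraries, 28 with the mitochondrial covariate and 30 with no filter. With a library left out the nominal members ran from 5 to 11 for interferon, 2 to 11 for immediate early genes, 2 to 8 for effectors, 7 to 56 for ribosomal proteins, 11 to 33 for oxidative phosphorylation and 3 to 7 for nuclear RNAs, and the medians from 0.137 to 0.295 for interferon and from -0.187 to -0.0767 for effectors. The interferon median was 0.084 with the DESeq2 prior. Taken as the median over members, the level of immediate early genes was 0.018 higher in exGF (reversed from the mean), of effectors -0.077 and of interferon genes 0.12. Of 1434 values of 72 named genes under the alternatives, 1433 kept their direction. These genes were mostly named for a small p in the same libraries that the alternatives refit, so this was largely fixed in advance. The numbers in the column names did not pair the libraries (correlations of deviations -0.204, 0.065, 0.00728 and -8.18e-05), and with the replicate block 0 genes were called, with 364 nominally higher and 408 lower. Depth limits genes with few counts, such as Ifit3 and Igha.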

Other observations

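Several low or unfiltered transcripts were present in some pools and absent in others, and are given as values chosen after they had been seen. 1500004A13Rik, a transcript on chromosome 3 that overlaps 5830417I10Rik, had 5, 0, 4 and 2 counts in GF, 0, 986, 647 and 307 in exGF and 806, 2, 315 and 945 in CON. Gm24598 had 0, 1, 0 and 0 counts in GF, 69, 62, 30 and 1 in exGF and 1, 42, 47 and 101 in CON. Ifit1bl1, a member of the Ifit cluster below the count filter, had 2, 1, 0 and 0 counts in GF, 0, 38, 46 and 65 in exGF and 39, 52, 38 and 87 in CON. GFR1 thus stood with the GF pools for Ifit1bl1 and 1500004A13Rik, and GFR4 for Gm24598.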
